A study of Mus musculus with 3 samples.

Results

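The genes described here are 10 receptors for chemokines and other chemoattractants, namely Ccr1, Ccr2, Cx3cr1, Cxcr2, Cxcr4, Fpr1, Fpr2, C5ar1, Ltb4r1 and Ptafr. They were chosen by symbol, and their NCBI Gene IDs were looked up among the 16742 genes that the files list in any of 3 RNA-seq libraries. All 10 were found, 9 of them in the control library and 10 in each leukemia library. The control library came from lineage-negative (lin-) bone marrow cells of wild-type C57BL/6 mice, which remain after cells with mature lineage markers are removed. The TR1 and TR9 libraries came from GFP+ bone marrow cells of C57BL/6 mice with the genotype TBLR1-RARa (TR), a fusion of a corepressor subunit with the retinoic acid receptor alpha found in rare acute promyelocytic leukemia. Each library pooled 3 mice, labelled as 6 to 8 weeks old, so that there was 1 library per condition. The fusion was expressed together with GFP from a retroviral vector in transplanted lin- cells, and TR1 and TR9 are each the serially transplanted leukemia of a single primary recipient. Control cells were isolated by lineage depletion instead of GFP sorting, and the fusion, the sort and the cell types present cannot be told apart in any comparison with control.

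All 10 receptors are G protein-coupled receptors with which leukocytes sense gradients of attractant molecules. On binding a ligand they release inhibitory G proteins, which feed phosphoinositide 3-kinase gamma and the Rac GTPases that move the cell, and G protein-coupled receptor kinases and beta-arrestins then shut the receptor off. In bone marrow, CXCR4 holds stem cells and immature granulocytes near stromal cells that secrete CXCL12, whereas CXCR2 draws mature neutrophils into blood. CCR2 and CX3CR1 are best known from monocytes, and the receptors for formyl peptides, complement C5a, leukotriene B4 and platelet-activating factor from mature neutrophils and macrophages.

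Levels are given as FPKM, the number of fragments scaled by the authors for transcript length and library total, beside the expected count that RSEM estimated for the gene. The libraries summed to 5488778, 5571409 and 5129662 expected counts, and 3 counts were taken as the floor. Values given in threes are in the order control, TR1 and TR9. A gene was called higher or lower between 2 libraries when a Poisson test on the counts gave a false discovery rate of at most 0.001 over all genes listed in either library and the log2 ratio of FPKM was at least 1 in size. Such a call compares 2 libraries and has no replicate check, and the 95% intervals cover counting error only. Both leukemias were set against the same control library, so the 2 comparisons with control are not independent. Over all genes, the median log2 ratio against control was −0.29 in TR1 and −0.12 in TR9. The shift was placed at −0.25 and −0.11 by edgeR's TMM scaling, and at −0.24 and −0.08 by the median of ratios. TPM scaling, which makes the summed FPKM of the libraries equal, placed it at 0.23 and 0.11, so the direction of the shift depends on the measure. Fewer cells of a type and less RNA per cell cannot be told apart in these bulk libraries.

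The labels were checked against markers of the cell types. Of 6 primary granule genes of promyelocytes, 6 were called higher in TR1 and 5 in TR9. Elane, neutrophil elastase, was at 866 FPKM in control, 9103 in TR1 and 13178 in TR9. Mpo, not called in TR9 against control, was at 2255, 7585 and 3514 FPKM. Both Mpo and Ms4a3 were called lower in TR9 than in TR1. Of 8 progenitor markers, 1 was called higher and 7 lower in TR1 and 0 higher and 6 lower in TR9, and Kit was at 73.5, 29.1 and 62.6 FPKM, whereas Cd34 was at 75.8, 5.80 and 4.34. The control library also held RNA of cells with lineage genes, with Hba-a1, an alpha globin, at 417 FPKM, the eosinophil gene Prg2 at 563 and the collagen gene Col1a1 at 265. These were at 3.30, 1.10 and 2.68 FPKM in TR1 and at 6.47, 1.43 and 1.27 in TR9.

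Cxcr4 RNA was the most abundant of the 10 in every library, and the order of the others changed between libraries. Summed over the receptors, FPKM was 115 in control, 217 in TR1 and 254 in TR9. Cxcr4 made up 52.1%, 46.1% and 82.7% of these sums, and without it they were 55.2, 117 and 44.0. In control the order was Cxcr4, Ccr2, Cxcr2, Cx3cr1, Ltb4r1, Ccr1, Ptafr, then Fpr1 and Fpr2 at the same level, and C5ar1 at 0. The counting intervals of Cx3cr1 and Ltb4r1 overlapped there, as did those of Ltb4r1 and Ccr1 and those of neighbors from Ptafr downwards. In TR1, Ccr1 stood in the second place, followed by Cxcr2, Ccr2 and Ltb4r1, all with separate intervals, and the overlapping neighbors were C5ar1 with Ptafr, Cx3cr1 with Fpr2 and Fpr2 with Fpr1. In TR9, Cxcr4 at 210 FPKM was far above Ltb4r1 at 10.5, Ccr2 at 9.50 and Cxcr2 at 8.33, whose intervals overlapped from each to the next, and the lowest were Fpr1 at 0.59 and Fpr2 at 0.46.

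**Figure D1:**
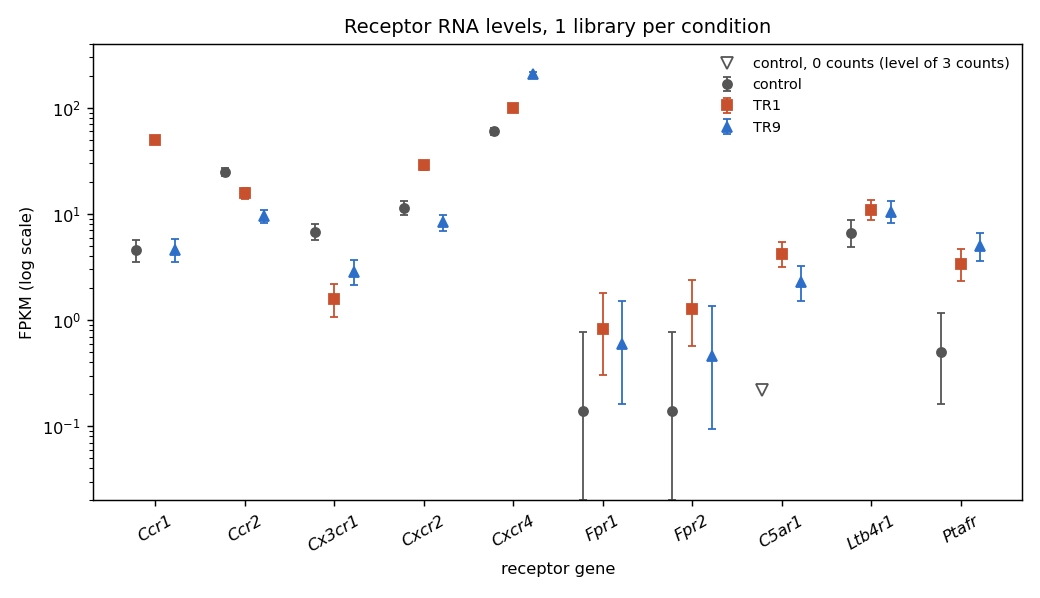
FPKM of each receptor gene (x axis) on a log scale (y axis) in control (circles), TR1 (squares) and TR9 (triangles), 1 library each, with bars for the 95% Poisson counting interval; lower bars of Fpr1 and Fpr2 in control run below the axis, and the open triangle marks the level that 3 counts would have for C5ar1, which had 0 in control. Ccr1 stands out in TR1 at 50.3 FPKM and Cxcr4 in TR9 at 210.

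Of the 10 receptors, 4 were called higher and 1 lower in TR1 than in control, against 8.09% and 13% of all genes tested. In TR9, 3 were called higher and 2 lower than in control, against 9.37% and 10.8% of all genes. Between the leukemias, 1 receptor was called higher and 2 were called lower in TR9 than in TR1, against 4.34% and 2.31% of all genes. Another 5 receptors passed no call in TR1 against control, 5 in TR9 against control and 7 in TR9 against TR1. With so few receptors these counts describe the members, and the median log2 ratio of the 10 was 1.94 in TR1 and 1.19 in TR9, or 1.16 and 0.31 when counts under 3 were set to 3. The same medians over all genes with that floor were −0.10 and 0.07.

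**Figure D2:**
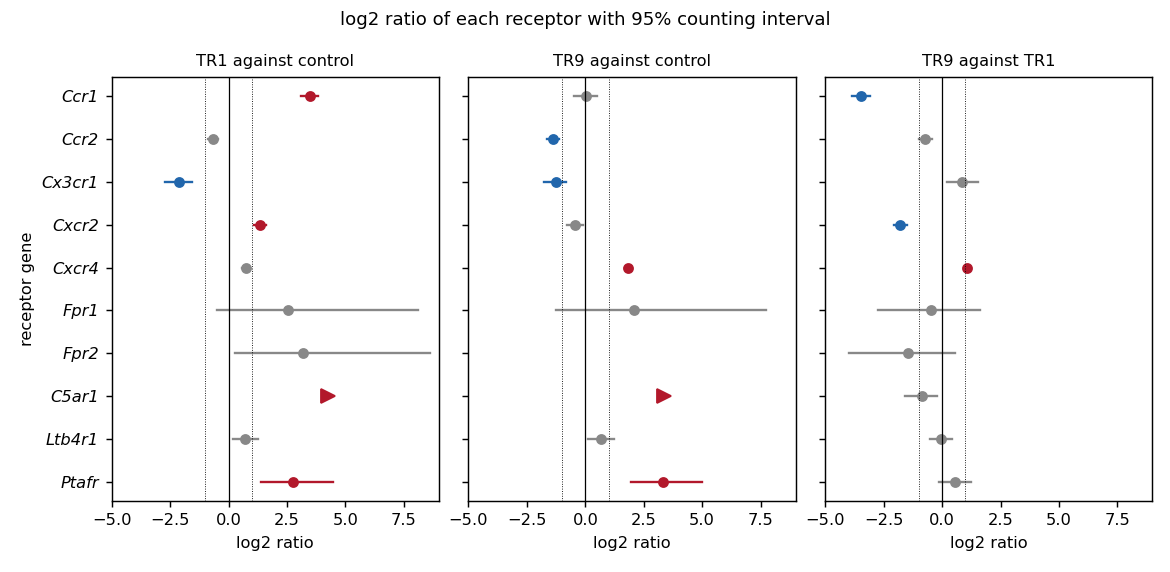
log2 ratio (x axis) of each receptor gene (y axis) in TR1 against control, TR9 against control and TR9 against TR1. Lines show the 95% counting interval, in red for genes called higher, blue for genes called lower and grey for genes not called. Dotted lines mark a log2 ratio of 1 in size, and arrowheads mark the ratio of C5ar1 to 3 control counts. Fpr2 has no point in TR9 against control, where both libraries had 3 counts or fewer. Ptafr and C5ar1 are red in both comparisons with control, Ccr1 and Cxcr2 are red in TR1 against control and blue in TR9 against TR1, and Cxcr4 is red in TR9 against either library.

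The promoters of Ccr1, Cxcr2, Cxcr4, C5ar1 and Ptafr are shown because these were the receptors called higher in a leukemia library. Each is the 250 bases before the start of the gene in RefSeq (GRCm38.p6), read on the strand of the gene, and capitals mark letters of the motifs searched on both strands. The motifs were GAGGAA, the core bound by the myeloid factor PU.1, TTGCNNAA, a form of the C/EBP site, AGGTCA, the core bound by retinoic acid receptors, and the DR5 direct repeat of AGGTCA, every match of which also holds the single core. The last base of each sequence is next to the start.
Ccr1, chr9:123968693-123968942, minus strand: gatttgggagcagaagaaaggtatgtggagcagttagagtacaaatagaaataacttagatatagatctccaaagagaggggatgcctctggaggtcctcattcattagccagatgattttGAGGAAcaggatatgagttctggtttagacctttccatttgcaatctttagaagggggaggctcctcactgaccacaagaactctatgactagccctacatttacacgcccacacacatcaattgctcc
Cxcr2, chr1:74153744-74153993, plus strand: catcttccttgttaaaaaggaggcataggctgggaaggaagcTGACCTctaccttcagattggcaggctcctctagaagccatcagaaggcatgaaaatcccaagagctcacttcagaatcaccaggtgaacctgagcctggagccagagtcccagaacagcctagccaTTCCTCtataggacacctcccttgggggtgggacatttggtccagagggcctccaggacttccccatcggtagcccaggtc
Cxcr4, chr1:128592300-128592549, minus strand: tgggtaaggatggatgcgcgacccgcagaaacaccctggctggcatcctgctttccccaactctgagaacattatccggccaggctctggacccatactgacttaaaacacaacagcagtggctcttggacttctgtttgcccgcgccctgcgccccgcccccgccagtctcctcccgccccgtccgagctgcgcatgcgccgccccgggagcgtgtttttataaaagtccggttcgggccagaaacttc
C5ar1, chr7:16259339-16259588, minus strand: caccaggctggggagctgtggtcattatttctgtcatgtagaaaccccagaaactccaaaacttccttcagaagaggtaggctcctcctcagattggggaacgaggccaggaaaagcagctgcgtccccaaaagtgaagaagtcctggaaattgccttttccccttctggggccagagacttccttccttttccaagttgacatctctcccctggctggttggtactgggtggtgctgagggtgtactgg
Ptafr, chr4:132563817-132564066, plus strand: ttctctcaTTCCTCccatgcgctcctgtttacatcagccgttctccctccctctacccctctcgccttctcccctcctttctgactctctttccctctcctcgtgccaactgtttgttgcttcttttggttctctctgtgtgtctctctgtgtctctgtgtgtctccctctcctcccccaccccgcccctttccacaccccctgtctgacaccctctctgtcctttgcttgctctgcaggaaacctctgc

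GAGGAA was present on either strand in 5 of the 10 receptor promoters, those of Ccr1, Cxcr2, Fpr2, Ltb4r1 and Ptafr, and in 23.3% of the 32851 RefSeq promoters searched in the same window. It lay 129 bases before the start in Ccr1, 81 in Cxcr2, 19 in Fpr2, 129 in Ltb4r1 and 242 in Ptafr, counted from its far end, on the strand of the gene in Ccr1 and on the opposite strand in the others. AGGTCA was present in 1 receptor promoter, that of Cxcr2 on the opposite strand 208 bases before the start, and in 14.0% of all promoters. TTGCNNAA, which 9.56% of promoters held, was found in 0 of the 10, and the DR5 repeat in 0 of the 10 and in 3 of all promoters. The window of Cxcr4 was the richest in G and C of the 10, at 61.2%, and that of Ccr2 the poorest, at 37.2%. These matches describe letters in a short window and show neither binding nor its absence.

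Cxcr4, the receptor of CXCL12, had 597, 1013 and 1958 expected counts, or 60.0, 99.9 and 210 FPKM. The level was lowest in control and highest in TR9. Cxcr4 was called higher in TR9 than in control, with a log2 ratio of 1.81 (95% interval 1.68 to 1.95), and its level was above that of 98.4% of all genes there. In TR1 the log2 ratio against control was 0.74 (0.59 to 0.89), which did not reach the threshold of 1, and it was 0.99 with TMM scaling. TR9 against TR1 gave 1.07 (0.96 to 1.18), past the threshold with library totals but 0.94 with TMM scaling and 0.95 with the median of ratios, so the call between the leukemias rests on the scaling. It was also lost with edgeR's exact test at an assumed variation of 0.2, and both Cxcr4 calls with a log2 threshold of 2.

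Cxcr2, the receptor of neutrophil-attracting CXC chemokines, had 191, 490 and 131 expected counts, which are 11.4, 28.7 and 8.33 FPKM. TR1 was high, and control and TR9 were near each other. Cxcr2 was called higher in TR1 than in control, with a log2 ratio of 1.33 (95% interval 1.09 to 1.59), and it was called lower in TR9 than in TR1, with a ratio of −1.79 (−2.07 to −1.50). Both calls were lost with edgeR's exact test at an assumed variation of 0.2 and with a log2 threshold of 2. The ratio of TR9 to control was −0.45 (−0.78 to −0.12) and passed no call. The counts of Cxcr2 were not whole in any library, so RSEM had assigned part of its reads by probability. Its close relative Cxcr1 had 3, 2 and 0 counts.

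Ccr1, a receptor of the CC chemokines CCL3, CCL5, CCL6 and CCL9 in the mouse, showed the largest called difference between the leukemias among the 10. It had 71, 798 and 67 expected counts, or 4.55, 50.3 and 4.59 FPKM. TR1 alone was high, and the levels of control and TR9 were almost equal. The log2 ratio was 3.47 (95% interval 3.12 to 3.84) in TR1 against control and −3.45 (−3.84 to −3.09) in TR9 against TR1. In TR9 against control it was 0.01 (−0.49 to 0.52), and this small value was below 0 with TPM scaling. The counts of Ccr1 were whole in all 3 libraries.

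The summed level of markers of later neutrophils was highest in TR1, where S100a8 and S100a9 made up most of the sum. Of 10 such genes, all 10 were called higher in TR1 than in control and 8 were called higher in TR9. Between the leukemias, 5 of the 10 were called lower and 2 higher in TR9 than in TR1. Their summed level was 93.7, 23269 and 9053 FPKM, and none was at 0 in any library. S100a8 was at 36.3, 8188 and 2414 FPKM, S100a9 at 27.0, 12864 and 1773, and Retnlg at 7.18, 41.1 and 7.01. Camp, at 2.87, 364 and 1647, and Ngp, at 11.3, 571 and 2833, were instead highest in TR9. The part of these cells in the values of Ccr1, Cxcr2, Cxcr4, C5ar1 and Ptafr was not tested.

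Ccr2, the monocyte receptor of CCL2, was the second most abundant receptor in control and had its lowest level in TR9. It had 496, 315 and 176 expected counts, which are 25.0, 15.6 and 9.50 FPKM. It was called lower in TR9 than in control, with a log2 ratio of −1.40 (95% interval −1.65 to −1.15). In TR1 the ratio was −0.68 (−0.88 to −0.47) and passed no call, nor did the ratio of −0.72 (−1.0 to −0.45) between TR9 and TR1. The TR9 call did not hold with edgeR's exact test given a variation of 0.2 or with a log2 threshold of 2. Its counts were not whole in any library.

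Cx3cr1, the receptor of fractalkine, was the only receptor of the 10 called lower than control in TR1. It had 142, 33.2 and 55.2 expected counts, or 6.82, 1.57 and 2.84 FPKM, so control was the highest and TR1 the lowest. The log2 ratio against control for TR1 was −2.12 (95% interval −2.72 to −1.57), and for TR9 it was −1.26 (−1.75 to −0.81), both called. The call in TR9 was lost with edgeR's exact test given a variation of 0.2 and with a threshold of 2 on the log2 ratio. The ratio of TR9 to TR1 was 0.86 (0.21 to 1.52) and passed no call. Its counts were not whole, and in GENCODE M21 its exons share 78 bases with the antisense gene Gm33858, whose reads would be counted with it if the libraries did not keep strand.

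Markers of monocytes and macrophages were lower in both leukemia libraries with few exceptions. Of 11 markers, 8 were called lower and 2 higher in TR1 than in control, and 8 were called lower and 1 higher in TR9. Csf1r, the receptor for macrophage colony-stimulating factor, was at 23.8, 6.47 and 4.04 FPKM and the complement gene C1qa at 17.8, 0.67 and 0.37. F13a1, coagulation factor XIII A, went the other way, with 98.8, 543 and 301 FPKM, and made up most of the summed level of 327, 605 and 387. Adgre1, at 2.57, 12.0 and 4.24 FPKM, was the other marker called higher in TR1. Without F13a1 the sum of the other 10 was 228, 61.6 and 85.3 FPKM. Irf8, at 68.0, 2.46 and 44.2 FPKM, was the largest part of that sum in TR9. It was called lower in TR1 than in control, passed no call in TR9 against control and was called higher in TR9 than in TR1. None of the 11 was at 0 in any library, and the part of these cells in the values of Ccr2 and Cx3cr1 was not tested.

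Fpr1 and Fpr2, which sense formylated bacterial peptides and, for Fpr2, also endogenous proteins, stayed near the limit of detection. Fpr1 had 1, 6 and 4 expected counts, and Fpr2 had 1, 9 and 3. Their levels were 0.14 FPKM in control for each, 0.82 and 1.26 in TR1, and 0.59 and 0.46 in TR9, where 3 counts would be 0.44 and 0.45. The log2 ratio in TR1 against control was 2.55 (95% interval −0.48 to 8.09) for Fpr1 and 3.17 (0.30 to 8.60) for Fpr2, and neither was called. In TR9 the ratio of Fpr1 was 2.08 (−1.24 to 7.72), and no ratio is given for Fpr2, with 3 counts or fewer in both libraries. Fpr2 shares 48 bases of exon with Fpr3 in GENCODE M21, and Fpr3 was not listed in any library.

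C5ar1, the receptor for the complement fragment C5a, had 0, 58 and 29 expected counts. Its level was 4.18 FPKM in TR1 and 2.27 in TR9, and 3 counts in control would be 0.22 FPKM, with the 95% counting interval of its 0 counts reaching 0.27. It was called higher in both comparisons. Set against 3 control counts, the level was 19.0-fold higher for TR1 and 10.3-fold higher for TR9. The 95% counting interval of the log2 ratio against control began at 3.91 for TR1 and at 2.98 for TR9. The log2 ratio of TR9 to TR1 was −0.88 (95% interval −1.58 to −0.21) and passed no call. C5ar2, the second C5a receptor, had 20.5, 46.9 and 55.1 expected counts, and the log2 ratio was 1.20 in TR1, not called, and 1.55 in TR9, called higher.

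Ptafr, the receptor for platelet-activating factor, was called higher in both comparisons with control. It had 5, 34 and 46 expected counts, or 0.50, 3.36 and 4.94 FPKM, with control far below both leukemia libraries. The log2 ratio for TR1 was 2.75 (95% interval 1.38 to 4.46), and for TR9 it was 3.30 (1.97 to 4.99). Between TR9 and TR1 it was 0.56 (−0.12 to 1.24), not called. The call in TR1 was lost with edgeR's exact test at an assumed variation of 0.2.

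Ltb4r1, the high-affinity receptor for leukotriene B4, passed no call. It had 50, 84 and 74 expected counts, which are 6.61, 10.9 and 10.5 FPKM. Both leukemia libraries were above control and close to each other. The log2 ratio was 0.72 (95% interval 0.20 to 1.26) in TR1, 0.66 (0.13 to 1.21) in TR9 and −0.06 (−0.53 to 0.40) between TR9 and TR1, the last of which was above 0 with TPM scaling.

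The ligand side of these receptors was read from a list of 31 genes, of which 25 were listed in a library. In TR1, 4 were called higher and 6 lower than in control, against 8.09% and 13% of all genes. In TR9, 3 were called higher and 4 lower, against 9.37% and 10.8% of all genes. Between TR9 and TR1, 3 were called higher and 2 lower, against 4.34% and 2.31%. Cxcl12, the ligand of CXCR4, had 122, 1 and 6 expected counts, with a log2 ratio in TR9 of −3.91, and was called lower in both while Cxcr4 itself was not lower in either. Ppbp and Pf4, platelet chemokines, were at 377 and 375 FPKM in control, 0 and 0 in TR1, and 0.36 and 0 in TR9. Of the 7 erythroid and megakaryocyte markers 7 were called lower in each leukemia, with Itga2b, the platelet integrin alpha chain, at 95.4, 2.28 and 0.90 FPKM. The 6 stroma and endothelium markers were mixed, with 3 called lower in each leukemia (Col1a1, Lum and Cdh5, of which Lum was at 0 in both), 1 called higher in TR1 and 2 called higher in TR9. Lepr, the leptin receptor of marrow stromal cells, was at 1.49, 3.29 and 1.07 FPKM and was the marker called higher in TR1. Kitl, the ligand of KIT, at 0.56, 0.42 and 4.17 FPKM, and Pecam1, at 41.4, 47.5 and 256, were those called higher in TR9. The part of these cells in the values of Cxcl12, Ppbp and Pf4 was not tested.

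Genes of proteins that act on the formyl peptide receptors were called in different directions between the leukemias. Saa3, an acute-phase protein of the serum amyloid A family, had 0, 838 and 9 expected counts, or 0, 298 and 3.48 FPKM. Anxa1, annexin A1, had 639, 5868 and 607 counts. Its log2 ratio against control was 3.17 for TR1, called higher, and 0.02 for TR9, and that of TR9 to TR1 was −3.15, called lower. Like Ccr1, Anxa1 was high in TR1 alone. Camp, whose product cathelicidin also binds FPR2, was instead higher in TR9 than in TR1, with a log2 ratio of 2.18. Ccl3, a ligand of CCR1, had 123, 43 and 188 counts, so it was lowest in the library in which Ccr1 was highest. Its log2 ratio was −1.54 in TR1 against control, called lower, and 2.25 in TR9 against TR1, called higher. The genes of other CCR1 ligands differed from Ccl3. Ccl6 was at 23.8, 1.51 and 1.78 FPKM and was called lower in both leukemias, and Ccl9, at 35.6, 19.2 and 24.5, passed no call.

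Of 17 enzymes that make or break down attractants, all 17 were listed. In TR1, 4 were called higher and 3 lower than in control, against 8.09% and 13% of all genes. In TR9, 3 were called higher and 5 lower, against 9.37% and 10.8% of all genes. Between TR9 and TR1, 1 was called higher and 3 lower, against 4.34% and 2.31%. Leukotriene B4 is made by 5-lipoxygenase (Alox5) with its activating protein (Alox5ap) and by leukotriene A4 hydrolase (Lta4h). Alox5ap was at 97.1 FPKM in control, 614 in TR1 and 254 in TR9, with log2 ratios of 2.66 and 1.39 against control. Alox5 was at 17.7, 8.83 and 23.8 FPKM and was higher in TR9 than in TR1 by a log2 ratio of 1.43. Cyp4f18, which inactivates leukotriene B4, stood at −0.35 for TR1 and −2.31 for TR9 on the log2 scale against control, only the latter called. Dpp4, a peptidase that trims CXCL12, was at 7.19, 0.10 and 0.26 FPKM and called lower in both.

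Lpcat2, an enzyme that makes platelet-activating factor, had calls of opposite direction in the leukemias. It had 77, 179 and 23 expected counts, and the log2 ratio was 1.19 (95% interval 0.80 to 1.60) in TR1, −1.65 (−2.39 to −0.96) in TR9 and −2.84 (−3.54 to −2.21) between TR9 and TR1. Lpcat4, a related acyltransferase, rose in both, from 4.57 FPKM in control to 18.0 in TR1 and 12.1 in TR9, with log2 ratios of 1.98 and 1.40. Pafah1b3, a subunit of an enzyme that breaks down platelet-activating factor, fell from 14.9 FPKM to 2.88 and 2.46. Of the same enzyme list, Pafah1b1 at 29.5, 25.5 and 31.1 FPKM, Pafah1b2 at 28.35, 17.3 and 18.6 and Pafah2 at 10.15, 15.0 and 12.8 passed no call. Lpcat1, also on that list, was at 26.2, 14.7 and 11.35 FPKM and was called lower in TR9 only.

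**Figure D3:**
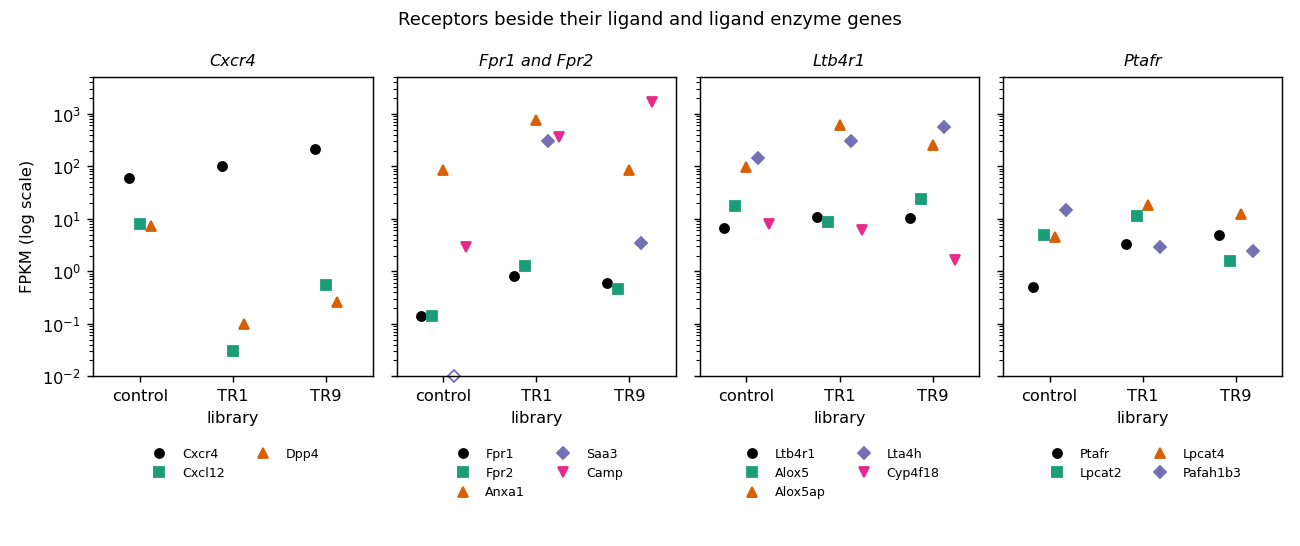
FPKM on a log scale (y axis) in each library (x axis) for Cxcr4, for Fpr1 and Fpr2, for Ltb4r1 and for Ptafr, each beside genes of its ligands or of the enzymes that make or remove them, with a point per gene and library and an open point at 0.01 for a gene at 0. Cxcl12 and Dpp4 drop to under 1 FPKM in TR1 and TR9 while Cxcr4 stays above 59 FPKM, and Saa3 and Anxa1 peak in TR1.

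Downstream of the receptors, all 34 genes of the G protein, phosphoinositide 3-kinase, Rac and shut-off chain were listed, and most passed no call. In TR1, 7 were called higher and 4 lower than in control, against 8.09% and 13% of all genes. In TR9, 4 were called higher and 8 lower, against 9.37% and 10.8% of all genes. Between TR9 and TR1, 0 were called higher and 7 lower, against 4.34% and 2.31%. The main inhibitory G protein gene Gnai2 was at 260, 293 and 284 FPKM, and Pik3cg, the catalytic subunit of phosphoinositide 3-kinase gamma, at 24.7, 34.4 and 26.9. Its adaptor Pik3r6 was at 4.89, 0.66 and 0.78 FPKM and was called lower in both leukemias, and the other adaptor Pik3r5 was at 3.19, 3.29 and 0.53 and was called lower in TR9. Prex1, an exchange factor for Rac, fell from 20.8 FPKM to 3.90 and 5.75. Rgs18, which limits G protein signaling, fell from 77.0 FPKM to 29.9 and 8.83.

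The arrestin genes went in opposite directions. Arrb1 was at 37.2 FPKM in control, 9.36 in TR1 and 13.2 in TR9, with log2 ratios of −1.99 and −1.50, and Arrb2 was at 47.2, 175 and 148 FPKM, with log2 ratios of 1.89 and 1.64. Fgr, a Src family kinase of myeloid cells, was highest in TR1, at 1.08, 12.7 and 2.77 FPKM, and TR9 was called lower than TR1, at −2.20 on the log2 scale. Arrb1, Arrb2, Gnai2 and Pik3cg were named after their values were seen. The same holds for C5ar2, Cxcr1, Ccl6, Ccl9, Lta4h, Lpcat1, Pafah1b1, Pafah1b2 and Pafah2 above.

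Other receptors of the same families were scarce. Of 34 further chemoattractant receptor genes, 24 were listed, and the highest level of any was 3.88 FPKM in control, 2.43 in TR1 and 3.11 in TR9. In TR1, 0 were called higher and 6 lower than in control, against 8.09% and 13% of all genes. In TR9, 1 was called higher and 4 were called lower, against 9.37% and 10.8% of all genes. Ccr3, the eotaxin receptor, had 39, 0 and 3 expected counts. Cysltr2, a receptor for cysteinyl leukotrienes, had 38 in control and 0 in both leukemias. Set against 3 counts in the leukemia library, Cysltr2 was 12.9-fold lower for TR1 and 11.8-fold lower for TR9. The 95% counting interval of its log2 ratio against control ended at −3.32 for TR1 and at −3.20 for TR9. Of 7 eosinophil, basophil and mast cell markers, 6 were called lower in TR1 and 7 in TR9, and their summed level was 1200, 86.5 and 90.9 FPKM, and their part in the values of Ccr3 and Cysltr2 was not tested. Cmklr1, the chemerin receptor, was at 1.37, 0 and 2.10 FPKM, and it was the 1 gene of this list that was called between the leukemias. Of 10 lymphoid and plasmacytoid dendritic cell markers, 2 were called higher and 1 lower in TR1 and 0 higher and 1 lower in TR9. Nkg7, at 95.04, 194.22 and 154.81 FPKM, and Bst2, at 27.86, 60.68 and 50.77, were those called higher in TR1. Neither was called in TR9 against control. Pax5 was not listed in any library, Cd3e was at 0.26, 0 and 0.14 FPKM, and Cd79b, the marker called lower in each leukemia, at 10.3, 0 and 0.

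**Figure D4:**
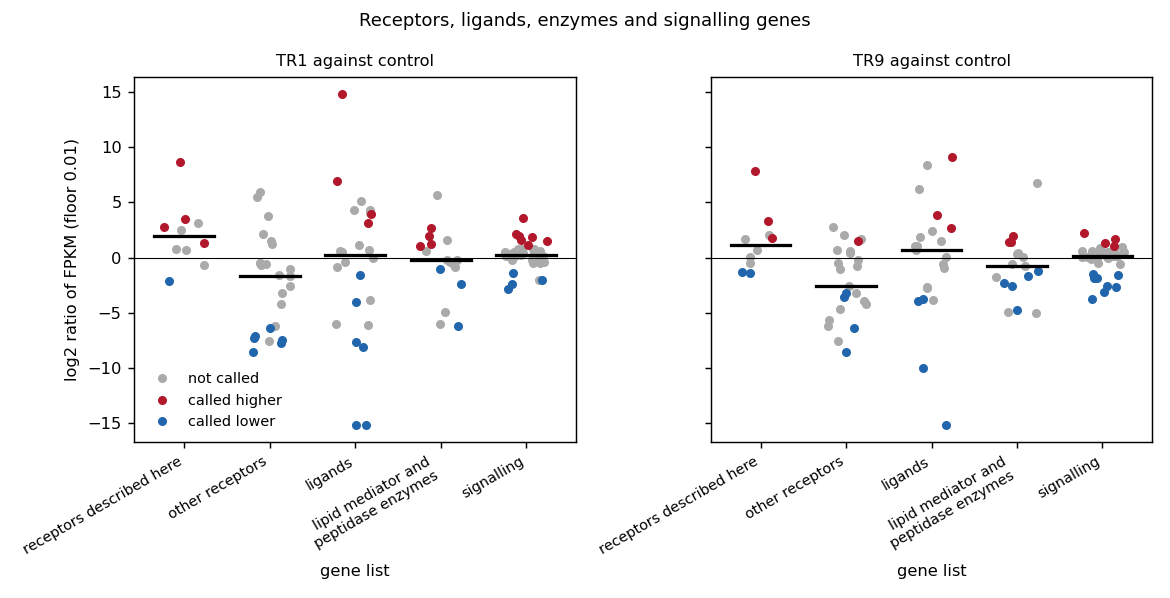
log2 ratio of FPKM with a floor of 0.01 (y axis) of each listed gene in the 10 receptors, the other receptors, the ligands, the enzymes and the signaling genes (x axis), for TR1 and for TR9 against control, with horizontal bars for the medians and colors for the calls; genes at 0 in a library lie far out because of the floor, C5ar1 among them. No other receptor is called higher in TR1 and 1 is in TR9, against 4 and 3 of the 10 receptors. Among the other receptors the top level is 3.88 FPKM (control), 2.43 (TR1) or 3.11 (TR9). Whether such low levels limit the calls was not tested. The lists were chosen with earlier results of these data known, so the contrast is not a test.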

How the data were processed

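RNA-seq libraries of control lin- bone marrow cells and of TR1 and TR9 GFP+ bone marrow cells were analysed, 1 per condition, grouped by the titles of the labels. Per the study's methods, the authors cleaned the reads, aligned them using BWA and Bowtie, and ran RSEM. The authors deposited an expected count per gene, which was not normalized, and an FPKM value, scaled by them for length and library total. The submitters' processing notes name mm9, and the tool versions are not given in the sources used here. Between 19.9% and 21.2% of listed genes had an expected count more than 0.005 from a whole number. Promoter windows came from GRCm38.p6, and no coordinate was used to obtain a value.

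Gene IDs were matched to RefSeq symbols (16698 of 16742), and IDs absent from a library counted as 0. After rounding, a Poisson test conditional on the 2 counts together (exact, scipy 1.17.1) was run per gene, with p-values adjusted by Benjamini-Hochberg and not printed. Log2 ratios used FPKM with a floor of 0.01. Intervals are 95% Clopper-Pearson. Genes of the 10 receptors were all named, with, from each pathway list, the 4 largest mean changes called in the same direction against control and the 3 largest changes called between TR9 and TR1, at 2 FPKM or more in a library, and Cxcl12. Some genes that the rule named are not reported here. Marker genes came from the marker lists. C5ar2, Cxcr1, Ccl6, Ccl9, Lta4h, Lpcat1, Pafah1b1, Pafah1b2, Pafah2, Arrb1, Arrb2, Gnai2 and Pik3cg, and the example markers, were picked after their values were seen. The members and lists were chosen with earlier results of these data known. Counts were also simulated as Poisson draws, with no variation between mice. In them, 200 genes among those with a mean count of at least 20 were changed by a log2 ratio of 2. Of the 200, 190 were recovered in TR1 against control (16282 genes tested), 187 in TR9 against control (16303) and 189 in TR9 against TR1 (15706), with 0 unchanged genes called. The simulated spread is the one that the test assumes, so these numbers do not measure errors from differences between mice. Alternatives were TMM (edgeR 4.0.16, R 4.3.3), median of ratios and TPM scaling, a floor of 0.001 or a pseudocount of 1 FPKM, a minimum of 10 counts or 1 FPKM, edgeR's exact test with an assumed variation of 0.2, a false discovery rate of 0.05 and a log2 ratio of at least 2.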

Additional observations from a re-analysis of the deposited data

Results flagged for a closer look

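Cxcr2 and Lpcat2 lay above the control library in TR1 and below it in TR9, although Cxcr2 passed no call in TR9. The log2 ratio of Cxcr2 was 1.33 in TR1 and −0.45 in TR9, and that of Lpcat2 was 1.19 in TR1 and −1.65 in TR9. With 1 library per condition, the difference between the leukemias was not tested across mice.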

How the results depend on the processing

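With the edgeR exact test at an assumed variation of 0.2, 2 receptors (Ccr1 and C5ar1) were called higher in TR1 than in control in place of 4, 0 in place of 2 were called lower in TR9 than in control, 0 in place of 1 higher and 1 (Ccr1) in place of 2 lower in TR9 than in TR1. With a log2 ratio of at least 2, 0 receptors were called lower in TR9 than in control, and 0 were called higher and 1 (Ccr1) lower in TR9 than in TR1. With TMM scaling and with the median of ratios, 0 receptors were called higher in TR9 than in TR1, since Cxcr4 then lay just under the threshold. With TPM scaling, the log2 ratio of Ccr1 in TR9 against control was −0.10 and that of Ltb4r1 in TR9 against TR1 was 0.054. The other 51 of 60 recomputed counts of called receptors stayed within 1.5 times the reported count, and 273 of 290 recomputed log2 ratios of single receptors kept their direction and their call or lack of one. Fpr1 and Fpr2 gave no value under the minimum of 10 counts, nor did Fpr1 in any comparison and Fpr2 in TR9 against control under that of 1 FPKM. Fpr2 was called higher in TR1 than in control only at a false discovery rate of 0.05. No library could be left out, and no paired analysis was possible because each condition had 1 library. The counts of Fpr1, 6 at most, did not show a difference at this depth.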
